A study of Mus musculus with 32 samples.

Results

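The Cyp2b cytochromes P450 and the receptors and reductase that work with them were examined in brown adipose tissue of mice lacking total ChREBP or its β isoform. The genes were Cyp2b9, Cyp2b10, Cyp2b13, Cyp2b19 and Cyp2b23, Nr1i3 (the receptor CAR), Nr1i2 (the receptor PXR) and Por (the P450 reductase). The array held 12 probes under these 8 gene names. A probe was used if its name also stood in the log2 table deposited by the authors, which left 6 probes under 5 gene names, out of 37304 probes in that table. The genes were chosen by their array values: Cyp2b9 and Cyp2b10 were among the largest differences between total ChREBP KO and WT mice. Values from that comparison are therefore given as a description with no test, and the genes are tested only in the ChREBPβ line.

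RNA was measured on 32 Agilent 1-colour arrays, 8 in each of 4 groups: total ChREBP KO mice, which are null for Mlxipl and lack the α and β isoforms, their WT controls, ChREBPβ KO mice, in which exon 1b of Mlxipl was removed in embryos by Cas9, and the WT littermates of that line. According to the study's methods these were male C57BL6/J mice, and both deletions affect every tissue. All 4 groups shared the same feeding regimen, 24 hours without food and then 18 hours of refeeding with 20% glucose added to the water. The age of the mice was not stated, and the labels number the replicates without saying how the samples relate to animals, so p values measure the spread between these samples. The number of arrays limits the precision.

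ChREBP, encoded by Mlxipl, is a transcription factor that turns on lipogenic genes in response to glucose. Cyp2b enzymes are membrane-bound monooxygenases best known in liver, where CAR and PXR, which act as heterodimers with retinoid X receptors, induce them after exposure to drugs such as phenobarbital. Each microsomal P450 carries a heme group and receives electrons from the reductase encoded by Por.

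The arrays carried the signals that their labels call for. The brightest probe of Mlxipl read 16.15 ± 0.12 on the log2 scale in total-line WT (SD, n = 8) against 13.67 ± 0.15 in total ChREBP KO, and 16.34 ± 0.14 in ChREBPβ-line WT against 14.84 ± 0.10 in ChREBPβ KO. The mean log2 intensity of 8 brown adipose genes lay between 14.97 and 15.88 on every array. Single genes of that list differed between groups in opposite directions. Elovl3 had means of 14.07 in total-line WT and 10.91 in total ChREBP KO, and 12.90 and 11.76 in ChREBPβ-line WT and KO. Dio2 had means of 13.01 and 15.20 in the total ChREBP line, and 11.71 and 12.80 in the ChREBPβ line. RNA of neighbouring or other tissues was present in uneven amounts. The mean of 12 skeletal muscle genes lay between 12.79 and 16.10 in the total ChREBP line and between 6.26 and 11.96 in the ChREBPβ line, and the mean of 15 liver genes ranged from 5.93 to 12.49. The mean of the 6 measured of 7 immune genes lay between 9.47 and 9.93 in total-line WT, 9.27 and 9.68 in total ChREBP KO, 9.32 and 9.74 in ChREBPβ-line WT and 9.08 and 9.73 in ChREBPβ KO. Among them the macrophage genes Adgre1, Lyz2 and Cd68 had lower means in total ChREBP KO than in its WT (7.88 against 8.68, 12.97 against 13.73 and 9.41 against 10.002). Their part in the differences described here was not tested. In bulk tissue, fewer cells of a type and less RNA per cell cannot be told apart.

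Whether the probes can tell the family members apart was examined first, by comparing the probes with each other. No transcript sequences were at hand, so no probe was compared with the transcripts of the other genes. The probe named Cyp2b9 (A_51_P467076, chromosome 7, 26995607 to 26995666 in build mm9) and the brighter probe named Cyp2b10 (A_55_P2044653, chromosome 7, 26711522 to 26711581) both lie near the 3′ end of their transcripts. In the array's annotation the probe named Cyp2b9 lists a transcript of Cyp2b10 beside its own. The end of the Cyp2b10 probe and the start of the Cyp2b9 probe cover the same 12 bases with 1 difference, A11T (Cyp2b10's base first, counted from the first of the 12 bases). They are shown because these stretches lie side by side in the related transcripts, and capitals mark the longest run that both 60-base probes share, 10 bases.
Cyp2b10 A_55_P2044653, last 30 bases: gtgctaatggactctgtaTAAGGTCTGAat
Cyp2b9 A_51_P467076, first 30 bases: TAAGGTCTGAtttctatgtctacagacttg
The longest shared run of any other pair among 10 member probes compared was 4 to 8 bases. Such runs between probes do not tell whether a probe also binds another gene's transcript.

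A further probe named Cyp2b10 (A_52_P472486, chromosome 7, 26702056 to 26702115 in mm9) starts at base 1094 of the transcript, far from the 3′ end. The probe for Nr1i3 (A_51_P358256, chromosome 1, 173147776 to 173147835) starts at base 1070 of its transcript. Both are printed whole, because they carry the readings of Cyp2b10 and of CAR that do not rest on the shared 3′ stretch.
Cyp2b10 A_52_P472486: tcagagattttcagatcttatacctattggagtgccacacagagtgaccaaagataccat
Nr1i3 A_51_P358256: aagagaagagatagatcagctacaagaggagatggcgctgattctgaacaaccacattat

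The probes named Cyp2b9 and Cyp2b10 rose and fell together from array to array, at different levels. In total-line WT the mean was 7.44 for Cyp2b9 and 8.43 for the brighter Cyp2b10 probe. Over the 32 arrays the brighter Cyp2b10 probe and the Cyp2b9 probe correlated with r = 0.999, and with r = 0.997 after each group's mean was taken off. The difference between their log2 processed signals had an SD of 0.035 to 0.092 within a group. For the pair of Cyp2b10 probes that SD was 0.13 to 0.31, and r was 0.989. These points share arrays and groups, and the figures are a description. The readings therefore give a signal shared by the names Cyp2b9 and Cyp2b10, and how much of it comes from each gene was not tested.

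**Figure D1:**
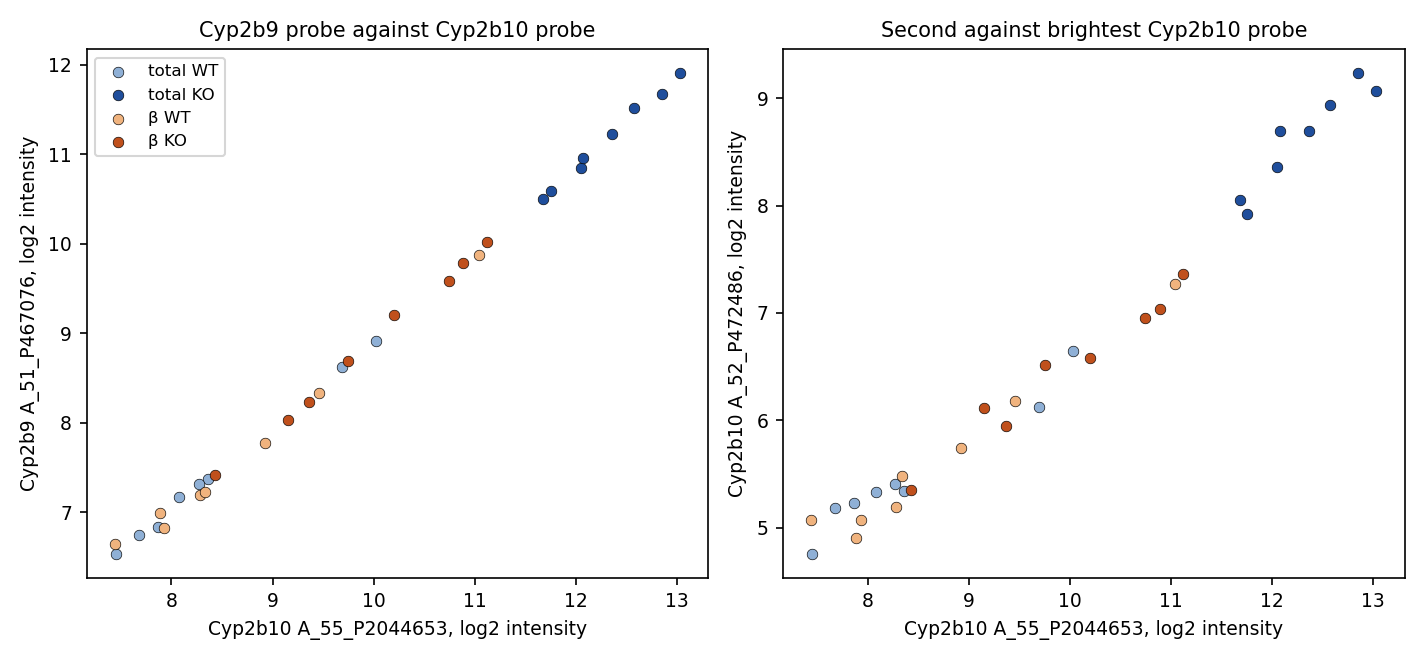
Each point is 1 of 32 arrays, colored by group. The left panel sets the log2 intensity of the Cyp2b9 probe against that of the brighter Cyp2b10 probe, where all groups lie on 1 line (r = 0.999), and the right panel sets the pair of Cyp2b10 probes against each other (r = 0.989).

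The genes sit in a cluster on chromosome 7. In the RefSeq gene table of assembly GRCm38.p6, 11 protein-coding genes run from Cyp2b10 to Cyp2b19, and Cyp2b13, Cyp2b9 and Cyp2b23 lie between them. The windows from 250 bases before to 50 bases after the start of each gene were compared in the RefSeq promoter table of GRCm38.p6, in which all 8 genes were found. The windows of Cyp2b9 and Cyp2b13 differed at 2 of 300 bases (C48T and T104C, Cyp2b13's base first, counted from the 5′ end of the window). The Cyp2b10 window was 72.9% identical to that of Cyp2b9 over the aligned columns. The 100 bases before the start are shown for all Cyp2b genes, so that the likeness of Cyp2b9 and Cyp2b13 and the places of the motifs can be seen. Capitals mark TTGCNNAA, a motif of the type bound by C/EBP factors, and ATAAAA, which resembles a core promoter element, where they occur on the strand printed. These motifs do not overlap in the stretches shown.
Cyp2b10, chr7:25897558-25897657, plus strand: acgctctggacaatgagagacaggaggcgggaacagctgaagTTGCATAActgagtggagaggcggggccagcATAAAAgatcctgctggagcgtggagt
Cyp2b9, chr7:26173309-26173408, plus strand: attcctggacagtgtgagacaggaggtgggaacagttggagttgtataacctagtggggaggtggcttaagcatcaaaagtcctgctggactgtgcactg
Cyp2b13, chr7:26061395-26061494, plus strand: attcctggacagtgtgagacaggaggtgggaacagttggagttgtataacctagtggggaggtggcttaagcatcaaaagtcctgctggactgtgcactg
Cyp2b23, chr7:26686431-26686530, minus strand: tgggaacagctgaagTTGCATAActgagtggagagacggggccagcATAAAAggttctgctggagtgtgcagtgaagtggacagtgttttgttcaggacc
Cyp2b19, chr7:26757042-26757141, plus strand: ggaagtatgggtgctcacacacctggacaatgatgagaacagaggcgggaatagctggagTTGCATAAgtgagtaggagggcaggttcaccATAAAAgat

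Over the whole 300-base windows and both strands, TTGCNNAA occurred once in each of the 5 Cyp2b genes, against 10.8% of 32817 windows of the same length. ATAAAA occurred in Cyp2b10, Cyp2b19 and Cyp2b23 and in 18.5% of all windows. AGGTCA, the core of nuclear receptor binding sites, occurred once in each of Cyp2b9, Cyp2b13, Cyp2b19 and Cyp2b23 and in 16.3% of all windows. CACGTG, the E box of which a carbohydrate response element holds a pair, occurred in the Nr1i3 window and in none of the other 7, against 7.15% of all windows. Such matches are a description of these letters and not of binding, and stretches beyond these windows were not searched.

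Cyp2b10 and Cyp2b9 stood far above their WT controls in total ChREBP KO brown adipose tissue. Cyp2b10 (A_55_P2044653) had log2 intensities from 7.45 to 10.03 in WT mice of that line (median 8.17) and from 11.68 to 13.03 in total ChREBP KO (median 12.22). Its lowest KO array lay 1.65 above its highest WT array, so the groups did not overlap. The difference of the means was 3.87 on the log2 scale, a 14.6-fold ratio. Cyp2b9 had log2 intensities from 6.54 to 8.92 in WT (median 7.25) and from 10.51 to 11.90 in KO (median 11.09), a difference of 3.71 or 13.1-fold. The second Cyp2b10 probe (A_52_P472486) ran from 4.76 to 6.65 in WT and from 7.92 to 9.23 in KO, a difference of 3.11. On all 3 of these probes all 8 KO arrays lay above every WT array, and 7.7% of all probes did so in this comparison. Among 24523 genes the Cyp2b10 difference ranked 2 and the Cyp2b9 difference ranked 3 from the highest, which is how they were chosen.

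**Figure D2:**
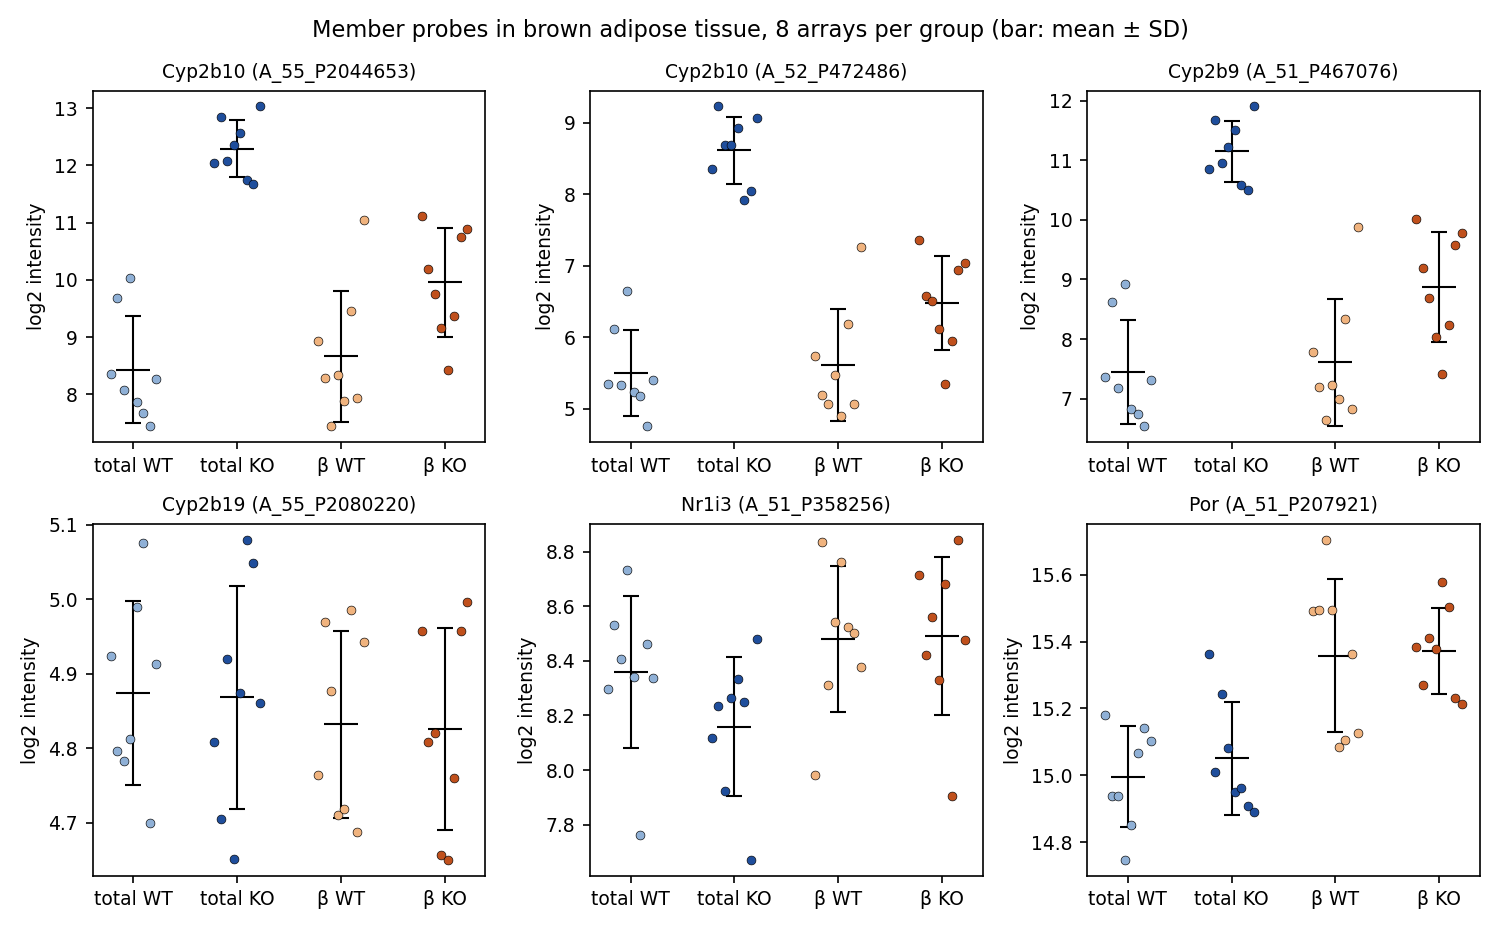
Log2 intensity of the 6 member probes on each array (points) with the group mean and SD (bars), 8 arrays per group; each panel has its own vertical axis. The Cyp2b10 and Cyp2b9 probes of total KO arrays lie above all WT arrays of that line, and those of β KO arrays overlap with β WT, where 1 array reaches 11.04 on the brighter Cyp2b10 probe.

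The Cyp2b10 values behind this description were checked for spot quality. Every Cyp2b10 and Cyp2b9 spot was positive and well above background on all 32 arrays, and none was saturated. The scanner software marked the spot of the brighter Cyp2b10 probe as not found on 5 of 8 WT arrays of the total ChREBP line and on 1 ChREBPβ KO array, so that it met all criteria of the filter on 26 arrays. The spot of the second Cyp2b10 probe was not found on 2 WT arrays of the total ChREBP line. The Cyp2b9 spot was found on all 32 arrays. With the spots marked as not found left out, the difference of the brighter Cyp2b10 probe in total ChREBP KO was 3.68.

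In ChREBPβ KO mice the same probes had higher means than in WT littermates, but no difference passed the test over all probes. Cyp2b10 (A_55_P2044653) had log2 intensities from 7.44 to 11.04 in WT (median 8.31) and from 8.43 to 11.12 in ChREBPβ KO (median 9.97). Its means were 8.66 ± 1.15 and 9.96 ± 0.95 (SD, n = 8 each). The groups overlapped over most of their range, and the mean of the WT group was exceeded on 7 of 8 KO arrays. The difference was 1.29 ± 0.43 (SE), with a 95% interval from 0.41 to 2.17 and an adjusted p of 0.112 by limma with Benjamini-Hochberg adjustment. An exact permutation test over all 12870 splits of the 16 arrays, two-sided and unadjusted, gave p = 0.0311.

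Cyp2b9 ran from 6.65 to 9.88 in ChREBPβ-line WT mice (median 7.21) and from 7.42 to 10.02 in KO mice (median 8.94). The difference was 1.26 ± 0.41 (SE), with a 95% interval from 0.42 to 2.10, a limma adjusted p of 0.101 and an exact permutation p of 0.0269. The second Cyp2b10 probe had a difference of 0.87, with a 95% interval from 0.25 to 1.48, a limma adjusted p of 0.133 and an exact permutation p of 0.0347. The difference was 1.36 with the scanner software's processed signals and 0.52 with normexp background correction. Since these 3 probes read nearly the same signal, they are not separate support for one another.

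Of the 6 member probes, 0 were called in ChREBPβ KO at an adjusted p under 0.05, where 2.55% of all 37306 probes were called. At an unadjusted limma p under 0.05 there were 3, the probes of Cyp2b10 and Cyp2b9, all higher. The share of all probes under that unadjusted threshold is not given, and these 3 read nearly the same signal. The outcome hung on 1 WT array. ChREBPβ-line WT array 8 read 11.04 on the brighter Cyp2b10 probe, and the next WT array read 9.46, a level that 5 of 8 KO arrays exceeded. Without that array the Cyp2b10 difference was 1.63 with a limma adjusted p of 0.0179, the Cyp2b9 difference was 1.58 with an adjusted p of 0.0155, and 3 member probes were called. The share of all probes called without it is not given. No label gives a reason to leave the array out. Within the 4 wash batches that the labels name, the Cyp2b10 difference in the ChREBPβ line ranged from -0.10 to 2.09, with 1 to 3 arrays of a genotype in a batch. In the total ChREBP line it ranged from 3.37 to 4.48.

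The differences in both lines are set side by side without a test, because the choice of the genes used the total ChREBP line. Cyp2b10 differed by 3.87 in total ChREBP KO and by 1.29 in ChREBPβ KO, each on the log2 scale against its own WT group. The WT groups themselves were close, with a Cyp2b10 mean of 8.43 ± 0.94 in the total ChREBP line and 8.66 ± 1.15 in the ChREBPβ line.

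**Figure D3:**
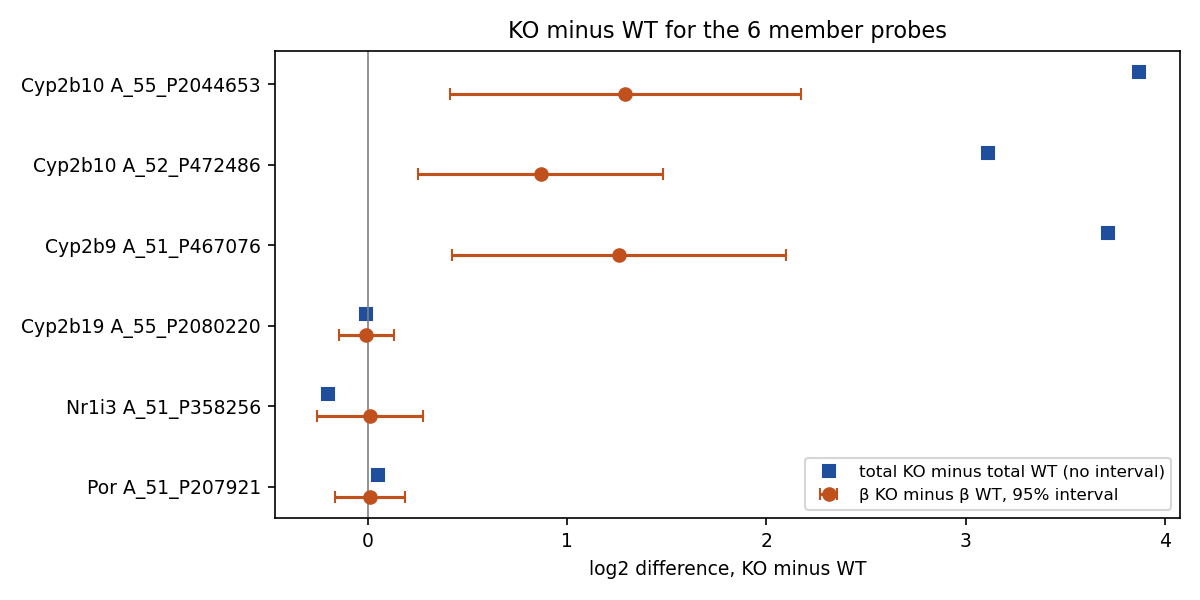
Log2 difference between KO and WT for each member probe. Circles are ChREBPβ KO with 95% intervals from limma, and squares are total ChREBP KO, shown without intervals because that comparison chose the genes. The intervals of Cyp2b10 and Cyp2b9 lie above 0 (0.41 to 2.17 and 0.42 to 2.10) although neither passed the adjustment over all probes, and those of Cyp2b19, Nr1i3 and Por span 0.

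The remaining Cyp2b genes were at or near background. Cyp2b13, a liver P450 with female-biased expression, was well above background on 2 of 32 arrays. Cyp2b23 was well above background on 0 arrays. Cyp2b19, an epidermal arachidonic acid epoxygenase, had 1 probe in the table (A_55_P2080220, chromosome 7, 27557545 to 27557604 in mm9), which was well above background on 23 of 32 arrays. It passed the filter through the WT mice of the total ChREBP line, where all 8 arrays were above background, and through ChREBPβ KO, where 6 were, against 5 in total ChREBP KO and 4 in ChREBPβ-line WT. Its log2 intensities stayed within 4.65 to 5.08 on all 32 arrays. The difference in ChREBPβ KO was -0.01, with a 95% interval from -0.14 to 0.13 and a limma adjusted p of 0.987, and in total ChREBP KO it was -0.01 on the log2 scale, a sign that turned when the median intensity was scaled to its 75th percentile (0.17). The other Cyp2b19 probes were well above background on 0 arrays. The mean of 5 keratinocyte genes, measured because Cyp2b19 is an epidermal enzyme, lay between 6.19 and 6.54 on all arrays but total-line WT array 4, where it was 8.66 and Cyp2b19 read 4.81.

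CAR mRNA was measured on every array, and its groups overlapped in both lines. Nr1i3, which encodes CAR, the main activator of Cyp2b10 in liver, was well above background on all 32 arrays. Its log2 intensities ran from 7.76 to 8.73 in WT mice of the total ChREBP line (median 8.37) and from 7.67 to 8.48 in total ChREBP KO (median 8.24). These ranges overlapped, and the mean was 0.20 lower in KO, with 7 of 8 KO arrays below the WT mean. In the ChREBPβ line Nr1i3 ran from 7.98 to 8.83 in WT (median 8.51) and from 7.90 to 8.84 in KO (median 8.52). The difference was 0.01, with a 95% interval from -0.26 to 0.28 and a limma adjusted p of 0.988. Across the 32 arrays Nr1i3 and Cyp2b10 correlated with r = -0.18, and with r = 0.28 after group means were taken off. A second Nr1i3 probe was well above background on 0 arrays.

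Nr1i2, which encodes PXR, was well above background on 8 of 32 arrays, with 1 in total-line WT, 0 in total ChREBP KO, 3 in ChREBPβ-line WT and 4 in ChREBPβ KO. It met all criteria of the filter on 5 arrays and was not in the deposited table, so no difference is given. These arrays give no measured level of PXR mRNA for most samples.

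Por, which hands electrons to every microsomal P450, was strongly expressed (A_51_P207921, chromosome 5, 136211116 to 136211175 in mm9). Its log2 intensities ran from 14.75 to 15.18 in WT mice of the total ChREBP line and from 14.89 to 15.36 in total ChREBP KO, with means 0.05 apart, a sign that turned under another scaling (-0.05 with processed signals). In the ChREBPβ line they ran from 15.09 to 15.70 in WT and from 15.21 to 15.58 in KO. The difference was 0.01, with a 95% interval from -0.16 to 0.19 and a limma adjusted p of 0.980. The groups overlapped in both lines. The WT groups of the lines differed more than either KO did from its own WT, with a mean 0.36 higher in the ChREBPβ line and 8 of 8 of its WT arrays above the mean of the other line. After group means were taken off, Por and Cyp2b10 correlated with r = -0.55 over the 32 arrays, a description with no test.

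Liver RNA was measured on each array because liver expresses the Cyp2b genes. Median list means were 7.23 in total-line WT, 6.17 in total ChREBP KO, 9.03 in ChREBPβ-line WT and 9.97 in ChREBPβ KO. Total ChREBP KO, the group with the highest Cyp2b10, had the lowest median list mean. The genes of the list did not move alike in that group. Serpina1c had a mean of 10.44 against 9.82 in its WT, and Apoc3 had 8.34 against 9.92. The source of the Cyp2b10 signal was not tested. Of 15 liver genes, 8 were well above background on all arrays of total ChREBP KO, Alb among them, and Ambp, Apoh and Fgb were so on 2 of its 8 arrays. In that group 6 arrays had list means from 5.93 to 6.26, and the other 2 had 8.26 and 8.41 with Cyp2b10 at 12.57 and 11.75, within the range of the 6 arrays. With the list mean as a covariate the Cyp2b10 difference in ChREBPβ KO was 1.29 with a limma adjusted p of 0.112.

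**Figure D4:**
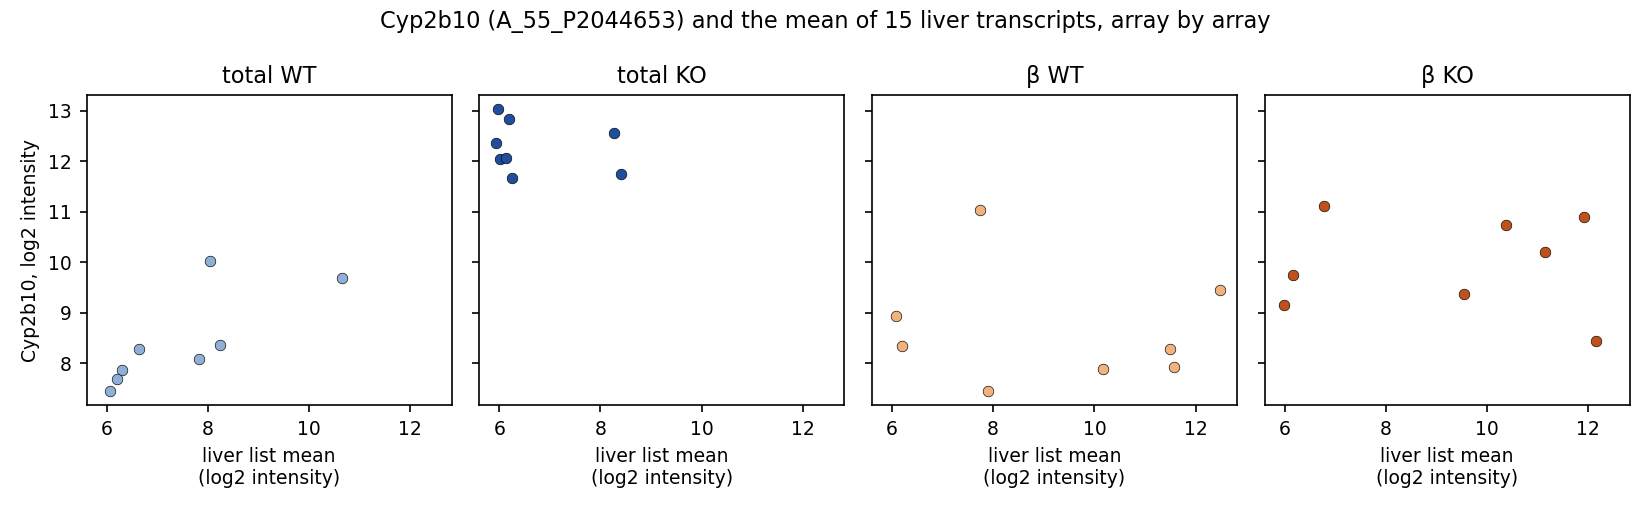
Log2 intensity of Cyp2b10 (vertical axis) against the mean log2 intensity of 15 liver transcripts (horizontal axis) on the 8 arrays of each group. The total KO arrays have the highest Cyp2b10 and list means of 5.93 to 8.41, whereas β line arrays reach list means of 12.49 with Cyp2b10 between 7.44 and 11.12.

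Within groups, the relation of Cyp2b10 to liver RNA was seen in WT mice of the total ChREBP line. There r was 0.775 (exact permutation p = 0.0207, adjusted p = 0.124 over 12 relations of Cyp2b10, Cyp2b9 and Nr1i3) and Spearman's rho was 0.905 (exact permutation p = 0.0046, adjusted p = 0.0274). Without the 2 arrays farthest from the median of the list mean, r was 0.61. Cyp2b9 gave r = 0.785 and the same rho in that group. Its probe reads nearly the same signal, so this is not separate support. The adjustment counted both names as separate relations. In the ChREBPβ line r of Cyp2b10 was -0.12 in WT and -0.02 in KO (exact permutation p = 0.806 and 0.955), and without the 2 farthest arrays it was -0.30 and -0.46. Over the 8 total ChREBP KO arrays r was -0.22 for Cyp2b10 and 0.25 for Nr1i3 (exact permutation p = 0.594 and 0.577). These arrays fell into 2 sets by their list mean. Over the 6 with a low one r was -0.37 for Cyp2b10 and -0.73 for Nr1i3, with no test. The list means of those 6 ran only from 5.93 to 6.26. In the other groups Nr1i3 had r of 0.46 in total-line WT, 0.64 in ChREBPβ-line WT and 0.07 in ChREBPβ KO, with adjusted p of 0.357 or more in exact permutation tests.

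Of the other known targets of CAR and PXR, 0 were called in ChREBPβ KO and 5 in total ChREBP KO. Of 28 genes in a list of targets, 18 were measured above the filter. In ChREBPβ KO 0 of these were called by limma, against 2.7% of all genes. Their median difference was 0.03 against -0.003 over all genes. At an unadjusted limma p under 0.05 there were 2, both higher, and the share of all genes under that threshold is not given. Some of the 18 varied widely, with an SE of 0.80 for Cyp2c29, 0.65 for Cyp2c37 and 0.48 for Cyp3a11. In these genes only large differences could be called. In total ChREBP KO 5 of 18 were called, all higher, which is 27.8% against 44.1% of all genes called in either direction and 22.9% called higher, and the median difference was 0.001 against 0.01. Papss2, which makes the sulfate donor for conjugation, was higher by 1.05 ± 0.09 (SE), Gstt1, a glutathione transferase, by 0.99 ± 0.12, and Cyp2c55 by 0.59 ± 0.09 (limma adjusted p of 4.5e-11, 6.4e-08 and 2.2e-06, each above the WT mean on 8 of 8 KO arrays). The classic PXR target Cyp3a11 had a mean of 5.53 in both groups of that line. This was a low level, against 6.69 and 6.66 in ChREBPβ-line WT and KO. Cyp2c29 was well above background on only 4 of 8 WT and 3 of 8 KO arrays of the total ChREBP line. Gstt1 had a difference of 0.41 in ChREBPβ KO with an adjusted p of 0.066.

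The receptor partner list held heterodimer partners and coregulators of CAR and PXR, the protein that retains CAR, and related receptors. It was counted in the same way. Of 20 listed, 18 were measured, and in ChREBPβ KO 1 was called, higher, where 1.37% of all genes were called higher. Rxrg, a retinoid X receptor that pairs with CAR and PXR, rose by 0.31 with a limma adjusted p of 0.0042, and it was above the WT mean on all 8 KO arrays. With slide added as a block it was no longer called. In total ChREBP KO 5 of 18 were called, all higher, again 27.8%, beside 44.1% of all genes called in either direction and 22.9% called higher. The largest were Ppara, the fatty acid receptor (1.51 ± 0.09), Ppargc1a, a coactivator (1.18 ± 0.18), and Nr1h3, the liver X receptor α (0.41 ± 0.06). Rxrg was also among them at 0.29 ± 0.06. Ppara and Nr1h3 are in the list as related receptors and not as partners of CAR or PXR. Dnajc7, the chaperone that holds CAR in the cytosol, differed by -0.05 in ChREBPβ KO and by 0.09 in total ChREBP KO, and neither was called.

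Genes of heme synthesis and P450 electron transfer were all measured, 14 of 14. In ChREBPβ KO 0 were called by limma, against 2.7% of all genes. At an unadjusted limma p under 0.05 there were 3, all lower, and the share of all genes under that threshold is not given. In total ChREBP KO 11 were called, 7 higher and 4 lower, or 78.6% against 44.1% of all genes (22.9% higher and 21.1% lower). Hmox1, the heme oxygenase that breaks heme down, was higher by 1.23 ± 0.20, Alas1, the first enzyme of heme synthesis, by 0.92 ± 0.14 and Alad, the next enzyme, by 0.49 ± 0.06 (limma adjusted p of 7.2e-06, 1.9e-06 and 7.1e-08). Cyb5r3, the cytochrome b5 reductase, fell by 0.64, Pgrmc1, a heme-binding partner of P450s, fell by 0.44 and Uros, an enzyme of the same pathway as Alas1, fell by 0.28 (limma adjusted p of 8.1e-08, 0.00076 and 0.0048).

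**Figure D5:**
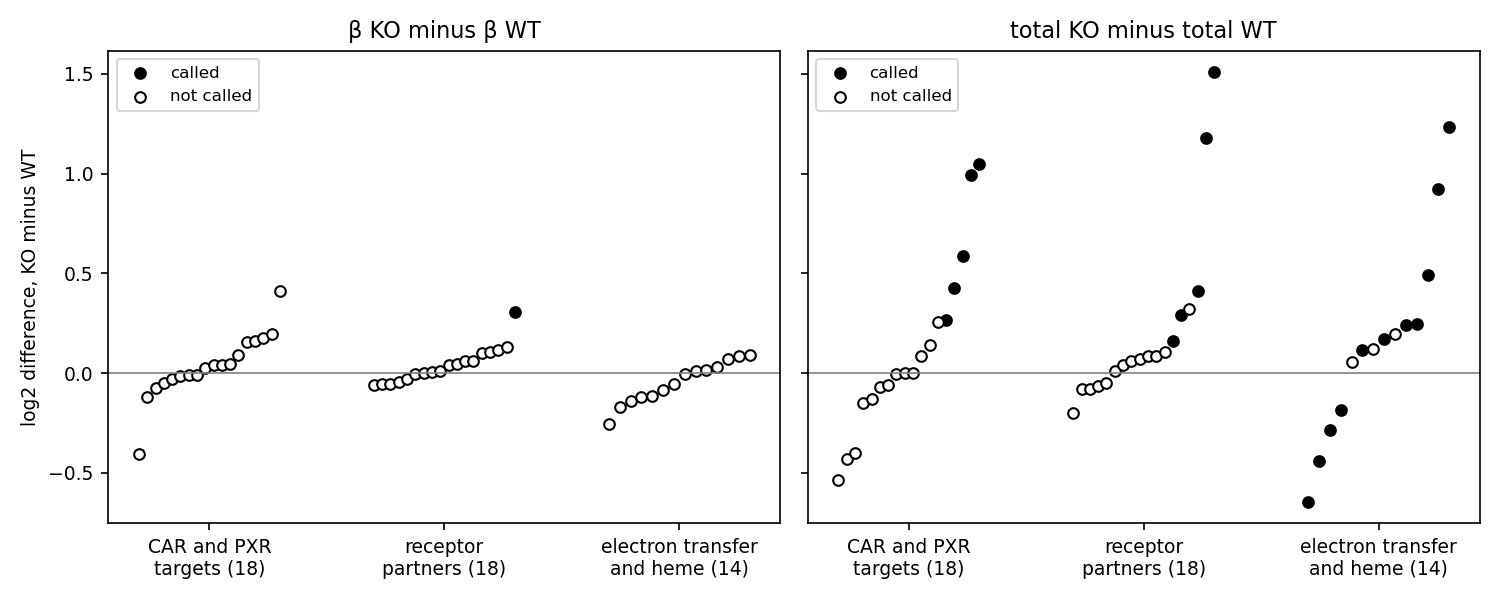
Log2 difference between KO and WT of each measured gene in the 3 lists (numbers of genes in parentheses), sorted within a list, for ChREBPβ KO on the left and total ChREBP KO on the right. Filled points were called by limma at an adjusted p under 0.05: 1 gene on the left, Rxrg, and 5, 5 and 11 genes on the right.

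Of the measured genes beside the Cyp2b genes on chromosome 7, 0 were called in ChREBPβ KO and 1 was called in total ChREBP KO. Intervals are not given for these genes, so larger differences could have gone uncalled. Of the 11 genes from Cyp2b10 to Cyp2b19, 6 were measured above the filter, and 3 of these were not Cyp2b genes. Cyp2a4, a steroid hydroxylase that lies between Cyp2b9 and Cyp2b19, differed by -0.04 in ChREBPβ KO and by -0.08 in total ChREBP KO, with limma adjusted p of 0.990 and 0.936. Nlrp9a differed by -0.07 and 0.08, with adjusted p of 0.832 and 0.484. Nlrp9c was called in total ChREBP KO, where it fell by 0.30 (limma adjusted p = 0.0074), and not in ChREBPβ KO (-0.18, adjusted p = 0.368).

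With the members themselves left out, the genes whose levels ran most like Cyp2b10 over the 32 arrays were Sat1, which acetylates polyamines (r = 0.891), Isoc1 (0.885), Car3, a carbonic anhydrase of adipose tissue and muscle (0.880), Pla2g16, an adipocyte phospholipase (0.870), and D8Ertd158e (0.870). Car3 had a difference of 2.41 in total ChREBP KO and of 0.75 in ChREBPβ KO. After group means were taken off, other genes came first, Tmem139 (r = 0.709), Cd164l2 (0.702), Fbxl5 (0.675), Anxa8 (0.675) and an unnamed transcript (0.671). How much of the likeness over 32 arrays lay between groups is not given. The pairs share arrays, so no p is given.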

How the data were processed

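Brown adipose RNA was hybridised to 32 Agilent 1-colour arrays, grouped by the genotype labels. The authors deposited each array's scanner output from Agilent Feature Extraction 10.10.1.1, with median, mean and processed intensity values per spot, and a table of log2 values, filtered and quantile normalized across arrays according to their methods (limma is named in the processing notes), with identical probes reduced to 1 value. That filter was rebuilt. It retained a spot that met the software's criteria (found, positive, and clearly above the background) on 26 or more of 32 arrays or on 6 or more arrays of 1 group. This left 37306 probes, whose log2, quantile normalized median intensity differed from the deposited table by 0.003 on average. Coordinates of probes are mm9 and those of promoters GRCm38.p6, and they were not mixed.

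All 32 arrays were fitted with limma 3.58.1 in R 4.3.3 with 4 group means and no covariate, adjusted over all probes, and called under 0.05. A gene in a list or named was represented by its brightest probe. The share of spots above background was 64.4% to 71.1% per array, and 0 spots were saturated. The fit was tested on simulated data. Promoter windows were aligned with Biopython 1.88. Groups were also compared within wash batches.

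The genes, lists and tests were chosen with earlier results of these data known. The genes named are all members with a probe in the deposited table, genes of each list called in ChREBPβ KO, up to 3 called genes in each direction in total ChREBP KO, and the 5 genes most like Cyp2b10 by each measure. Cyp3a11, Dnajc7, Gstt1 in ChREBPβ KO, Rxrg in total ChREBP KO and the neighbouring genes fall outside that rule, and were named after their values were seen. The alternatives tried were other intensities and scalings, the deposited table, other filters, a block for wash batch, slide or replicate number, array weights, each line alone, the liver or muscle list as a covariate, the mean of a gene's probes and leaving out each array. Leaving out spots marked as not found, and the relation of Nr1i3 to liver RNA, were added after the data were seen.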

Additional observations from a re-analysis of the deposited data

Results flagged for a closer look

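Nr1i3, which encodes CAR, read 7.76 on array 6 of the WT mice of the total ChREBP line, far from the nearest array of its group at 8.30, a gap of 0.550 of the group's range. The other 5 probes had no such array in any group. There were 24 probe groups looked at, and chance alone flags about 1 in 20.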

How the results depend on the processing

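The number of member probes called in ChREBPβ KO was 0 under all 15 alternatives that kept the arrays, and 0 to 3 when 1 array was left out, with 3 without WT array 8 of that line. The Cyp2b10 difference in ChREBPβ KO lay between 1.16 and 1.71 (limma adjusted p from 0.0736 to 0.236) and the Cyp2b9 difference between 1.09 and 1.62 (0.0673 to 0.222), and when 1 array was left out they lay between 1.12 and 1.63 and between 1.097 and 1.58. The filter for spots well above background and found on all arrays gave no value for Cyp2b10 or Cyp2b19. In total ChREBP KO the Cyp2b10 difference lay between 3.68 and 4.32 and that of Cyp2b9 between 3.44 and 4.07, and when 1 array was left out between 3.73 and 4.10 and between 3.58 and 3.92. The second Cyp2b10 probe moved to 3.91 with processed signals and 2.34 with normexp, and Cyp2b19 to 0.17 with the median intensity scaled to its 75th percentile. Plain differences near 0 in ChREBPβ KO turned sign: Por at -0.0505 with processed signals, -0.0204 with the 75th percentile, -0.0443 with a slide block and -0.00971 with array weights, and from -0.0258 to 0.0624 when 1 array was left out. Nr1i3 was at -0.0145 with normexp, -0.0931 with wash batch as a block and -0.0251 with the muscle covariate, and from -0.0602 to 0.0948 when 1 array was left out. Cyp2b19 was at 0.0113 with wash batch as a block, and from -0.0307 to 0.0188 when 1 array was left out.

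The target list had 1 gene called in ChREBPβ KO, Gstt1, with array weights or with the liver or muscle covariate, and 3 called in total ChREBP KO with the filter for all arrays. The heme list had 1 called in ChREBPβ KO, Uros, with array weights, and 7 in total ChREBP KO with a slide block, which also gave 0 receptor partners in ChREBPβ KO. When 1 array was left out, the counts in ChREBPβ KO were 0 to 1 for the target list (1 without WT array 5 or 7 or KO array 3 or 4), 1 in every case for the partners and 0 to 1 for the heme list (1 without WT array 5 or 7 or KO array 3), and those in total ChREBP KO were 4 to 6, 5 to 6 and 9 to 13. The relation of the liver list in ChREBPβ KO was at r = 0.00538 for Cyp2b10 and 0.019 for Cyp2b9 with processed signals and 0.017 for Cyp2b9 with the 75th percentile. The causes of these changes were not tested. For the counts in this section, the share of all probes or genes called under the same setting is not given. They are therefore not read as results about the members or the lists.

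With the replicate number as a block the Cyp2b10 difference was 1.29 (limma adjusted p = 0.0736) and the count of member probes called was 0. Same-numbered KO and WT arrays of the ChREBPβ line correlated between -0.20 and 0.53, with 6 of 8 over 0.1, against 16 of 48 over all pairs of groups. Not every pair was over 0.1 and no label ties the numbers together, so whether they pair the samples of this line was not settled, and the permutation tests took no account of them. The number of arrays limits what can be called, and most Cyp2b19, Cyp2b13, Cyp2b23 and Nr1i2 readings lie at or near background.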
